A study of Homo sapiens with 6 samples.

Results

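RAB proteins are the largest family of small GTPases and direct the traffic of membrane vesicles inside cells. A RAB carries a lipid anchor, is brought to its membrane by carrier proteins, is switched on by an exchange factor that loads GTP, and is switched off by a GTPase-activating protein. While loaded with GTP it recruits effectors such as tethers and motor proteins, and each RAB marks a particular compartment, from the Golgi to endosomes, lysosomes and the cell surface. In breast cancer cells the family is best known for recycling integrins and growth factor receptors and for the release of exosomes and matrix proteases. Members were taken as genes with a symbol of RAB, a number and at most a letter and a digit, measured by a probe set that names 1 gene. This gave 57 RAB genes of 19777 genes measured, out of 63 protein-coding genes whose RefSeq symbol has that form. RAB6C, RAB6D, RAB19, RAB34, RAB41 and RAB44 had no value under this rule.

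The cells were MDA-MB-231, a human breast cancer line of mesenchymal character without estrogen receptor, cultured in DMEM with serum. In the control siRNA group 3 samples were given a non-targeting siRNA, and in the ING2 siRNA group 3 were given 1 siRNA against ING2, which encodes a histone-binding subunit of a SIN3 deacetylase complex. Dharmafect 1 was the transfection reagent, no second ING2 siRNA is named, and RNA collection is placed at day 4 in one field of the labels and at day 3 in another. Each sample's total RNA went onto an expression array of its own, 6 in all, and precision is limited by having 3 arrays a group.

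ING2 itself was measured at 1399.7, 1349 and 1324 intensity units in the control arrays and at 163, 188 and 161 in the ING2 siRNA arrays. The ING2 groups did not overlap, and the log2 difference was -3.0 (SE 0.09, limma adjusted p = 1.85e-07; exact two-sided permutation p = 0.1, the smallest that 3 against 3 arrays allow). Whether the replicates were grown as separate cultures is not stated in the labels, and each p-value therefore measures only how these 6 samples spread, which may be technical. In RNA of a whole culture, fewer cells with a transcript and less of it per cell cannot be told apart. None of the 8 measured markers of mesenchymal breast lines passed the test, and SPARC was dim. The geometric mean level of the 8 on each array was 3089 to 3310 units in control and 2932.5 to 3183 in ING2 siRNA arrays. The luminal markers ESR1, PGR, CDH1, FOXA1 and ESRP1 were dim in both groups while KRT19 was bright. Of the 9 listed, 4 lay above the median intensity of genes and none passed. The geometric mean level of the 9 was 120.04 to 129 units in control and 124 to 135 in ING2 siRNA arrays. Of 7 fibroblast markers DCN and PDPN rose and LUM fell (42.9%, against 8.29% of all genes), at 0.35, 0.32 and -0.87 on the log2 scale. Of 6 blood markers CD79A rose and LYZ fell (33.3%), at 0.40 and -0.51. Most markers of both lists were dim, with 1 of the 7 and 1 of the 6 above the median intensity of genes. The geometric mean levels of these lists were 93.5 to 102 and 89.4 to 95.5 units in control and 96.8 to 104 and 88.8 to 96.8 in ING2 siRNA arrays. Their part in the results below was not tested.

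Of the 57 RAB genes, 8 passed the threshold of a limma adjusted p under 0.05 over all genes, 6 lower and 2 higher after ING2 siRNA. RAB4A, RAB10, RAB14, RAB18, RAB40B and RAB9A fell, to between 74.1% and 79.9% of control, and RAB4B and RAB6B rose, to 145% and 128%. These 8 genes are 14.0% of the family, where 8.29% of all genes passed in either direction. Falls took 10.5% of members against 4.67% of genes, and rises 3.51% against 3.62%. By the brightest probe set of each gene, the one used here, no RAB gene reached a 1.5-fold change, where 288 of 19777 genes did. Other probe sets of some members went beyond it, up to 1.98-fold lower for RAB8B. The family's median log2 difference was -0.01, where that of all genes was 0.06. The groups did not overlap for 24 of 57 members (42.1%), against 36.5% of all genes. In 11 of these each ING2 siRNA array was below each control array (19.3% of members against 13.8% of genes), and in 13 each was above (22.8% against 22.8%).

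**Figure D1:**
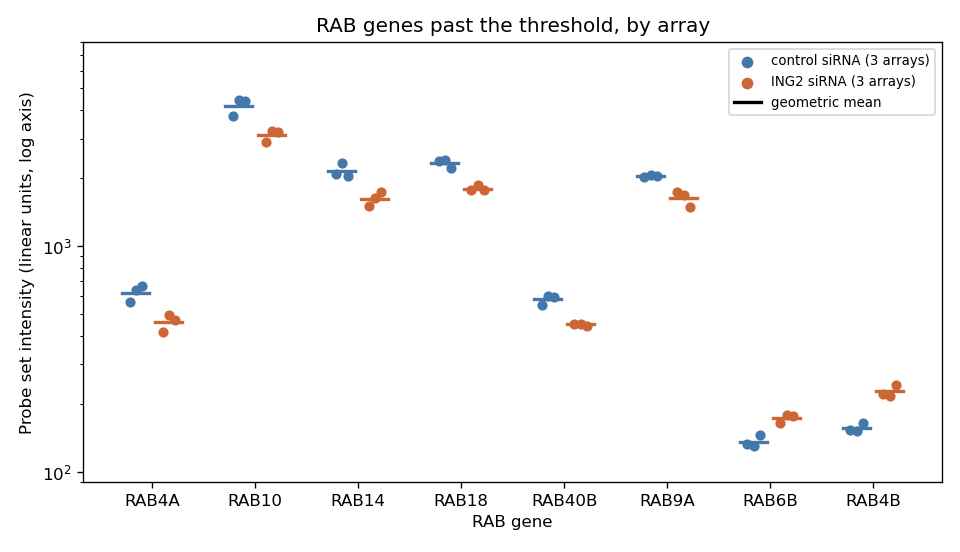
Probe set intensity (linear units on a log axis) of the 8 RAB genes past the threshold in each of the 3 control siRNA (blue) and 3 ING2 siRNA (orange) arrays, with bars at the geometric means. The ING2 siRNA points lie below the control points for RAB4A, RAB10, RAB14, RAB18, RAB40B and RAB9A and above them for RAB6B and RAB4B.

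These counts rest on small differences and move with the scaling of the arrays. After quantile normalization 3 members were higher (RAB4B, RAB6B and RAB15) and 1 lower (RAB4A), with 951 genes higher and 624 lower in all, against 716 and 924 as deposited. After cyclic loess RAB4B was higher and RAB4A and RAB40B were lower, where 2.26% of all genes were higher and 3.45% lower. After median centring 1 member was higher and 9 lower, against 1.33% and 7.31% of all genes. RAB4A and RAB4B passed under each of the 10 other settings of scaling, filter, probe set choice, variance model and replicate block that were run on all 6 arrays. RAB4A was close to the threshold after quantile normalization and cyclic loess (limma adjusted p = 0.0495 and 0.0454). With adjustment over probe sets, the RAB4A probe set used did not pass after either (limma adjusted p = 0.0643 and 0.0523). RAB4B has a single probe set of its own, so the settings of probe set choice could not change its log2 difference. No member passed without control array 2, control array 3, ING2 siRNA array 1 or ING2 siRNA array 3, fits in which 2 or 3 genes of 19777 passed (0.0101% to 0.0152%). Without control array 1 there were 3 higher and 6 lower members, against 4.97% and 8.25% of all genes. Without ING2 siRNA array 2 there were 1 and 9, against 6.2% and 6.83% of all genes.

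RAB genes were bright on these arrays, and the difference between the groups varied with brightness. The median log2 difference over all genes went from 0.12 in the dimmest of 10 equal bins of genes to -0.09 in the brightest. Of the 57 members, 12 lay in the brightest bin and 14 in the next. Of the 39 members above the median intensity of genes (68.4%), 6 fell and 1 rose, where 8.25% of such genes fell and 1.96% rose. Of the 18 dimmer members, none fell and 1 rose, where 1.09% of such genes fell and 5.28% rose. The arrays of both groups also differed in their distributions: the interquartile range of log2 values was 3.35 ± 0.03 (SD, n = 3) in control and 3.19 ± 0.08 (SD, n = 3) in ING2 siRNA arrays (exact two-sided permutation p = 0.1), with no overlap. The part of this shift in the RAB results was not tested beyond the scalings above. Set against the median of genes of like brightness, RAB4A was at -0.39, RAB40B at -0.36, RAB10 at -0.34, RAB14 at -0.32, RAB18 at -0.29 and RAB9A at -0.24 on the log2 scale. By the same measure RAB4B was at 0.49 and RAB6B at 0.24.

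**Figure D2:**
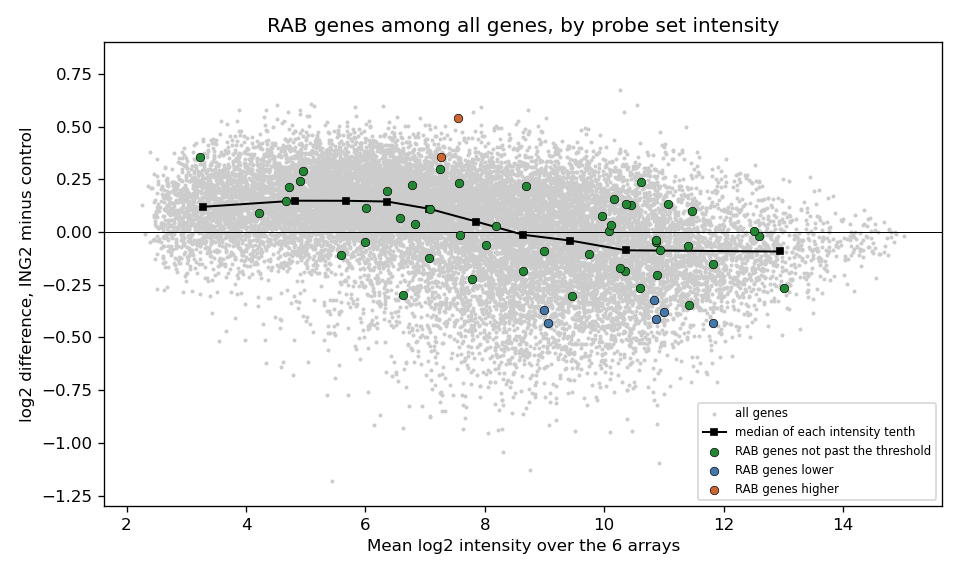
Log2 difference (ING2 siRNA minus control) against mean log2 intensity over the 6 arrays for all genes (grey; ING2, at -3.0, lies off the axis) and RAB genes (green, not past the threshold; blue, lower; orange, higher), with the median of each of 10 equal intensity bins in black. The black line passes from above 0 in dim genes to -0.09 in the brightest bin, and 12 RAB genes lie in that bin.

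The recycling group, whose members return cargo from endosomes to the cell surface, held 3 of the 8 called genes, RAB4A, RAB4B and RAB14. RAB4A, which drives fast return from early endosomes, was measured at 563, 642 and 663 units in control and 417, 496 and 470.4 in ING2 siRNA arrays. The log2 difference was -0.43 (SE 0.10, limma adjusted p = 0.0345), and each ING2 siRNA array was below each control array. RAB4B, its close paralogue, moved the other way. It was measured at 153, 152 and 164 units in control and at 222, 218 and 242 in ING2 siRNA arrays, a log2 difference of 0.54 (SE 0.08, limma adjusted p = 0.0177) with no overlap. The log2 ratio of the RAB4A to the RAB4B probe set within an array therefore fell by 0.97 between the groups (exact two-sided permutation p = 0.1), in a pair chosen after its values were seen.

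RAB4A and RAB4B differed in how their other probe sets behaved. All 3 RAB4A probe sets were below 0, at -0.36, -0.43 and -0.48. RAB4B has a single probe set of its own, and 4 further probe sets name it together with the readthrough genes MIA-RAB4B or RAB4B-EGLN2. Those 4 were at 0.14, 0.14, 0.20 and 0.21 and none passed, where 3.72% of the 1801 probe sets that name several genes did. The rise of RAB4B was thus measured by 1 probe set, and the others had the same sign and a smaller size. That 1 probe set was at 156 units in control (geometric mean). The shared probe sets that name MIA-RAB4B were brighter, at 681, 703 and 688 units, and the one that names RAB4B-EGLN2 was at 143.

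RAB14, which works between the Golgi, endosomes and the cell surface, was at 2095, 2334 and 2049 units in control and at 1505, 1636 and 1734 in ING2 siRNA arrays. The log2 difference was -0.41 (SE 0.09, limma adjusted p = 0.0323), without overlap. The remaining 5 recycling members did not pass: RAB11A and RAB11B, which mark the slow recycling endosome, were at 0.01 and 0.04 on the log2 scale, RAB35 at 0.08, RAB15 at 0.22 and RAB25, an epithelial relative of RAB11, at 0.29. RAB11A and RAB11B take the other sign under median centring. RAB25 was dim in this line, at 26.6 to 31.2 units in control and 31.2 to 36.2 in ING2 siRNA arrays.

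The starts of RAB4A, RAB4B, RAB14, RAB10 and RAB18 are shown because RAB4A, RAB10, RAB14 and RAB18 had the 4 largest falls past the threshold and RAB4B the largest rise in the family. Each is the 120 bases upstream of the RefSeq transcription start (assembly GRCh38.p14), 5′ to 3′ on the strand of the gene, and capitals mark matches on either strand to GGGCGG (the GC box bound by SP factors), CCGGAAG (the core bound by ETS factors), CACGTG (the E-box) or CCAAT. RAB4A lies at chr1:229270991-229271110 (plus strand), RAB4B at chr19:40778127-40778246 (plus strand), RAB14 at chr9:121201870-121201989 (minus strand), RAB10 at chr2:26033964-26034083 (plus strand) and RAB18 at chr10:27504184-27504303 (plus strand).
RAB4A: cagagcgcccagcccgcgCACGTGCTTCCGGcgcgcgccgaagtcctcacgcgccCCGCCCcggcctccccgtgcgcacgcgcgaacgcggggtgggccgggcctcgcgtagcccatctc
RAB4B: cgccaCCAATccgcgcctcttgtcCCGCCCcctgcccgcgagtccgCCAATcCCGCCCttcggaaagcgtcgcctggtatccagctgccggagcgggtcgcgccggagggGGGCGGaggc
RAB14: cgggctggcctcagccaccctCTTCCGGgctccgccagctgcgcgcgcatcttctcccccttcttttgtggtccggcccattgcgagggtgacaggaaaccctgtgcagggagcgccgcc
RAB10: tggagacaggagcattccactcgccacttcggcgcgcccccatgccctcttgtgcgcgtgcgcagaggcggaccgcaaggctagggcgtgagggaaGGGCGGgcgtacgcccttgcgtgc
RAB18: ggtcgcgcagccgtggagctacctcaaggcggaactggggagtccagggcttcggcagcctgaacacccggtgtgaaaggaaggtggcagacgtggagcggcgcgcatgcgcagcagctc
In RAB4A a CACGTG match is followed directly by a CCGGAAG match on the other strand, and further on by 1 GGGCGG match. RAB4B holds 3 GGGCGG and 2 CCAAT matches, RAB14 holds 1 CCGGAAG match and RAB10 holds 1 GGGCGG match. RAB18 holds 0 matches to any of the 4 motifs in these 120 bases. Over the 250 bases upstream, 64 start sites of 45 RAB genes were listed, and 75% held GGGCGG against 42.6% of 35116 start sites of all genes. CCGGAAG was present in 10.9% against 8.52%, CACGTG in 7.81% against 6.34% and CCAAT in 29.7% against 32%. A match is a run of letters and no measured binding, and the start sites of 1 gene overlap.

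Among the 11 measured RABs of the endoplasmic reticulum and Golgi, RAB18 fell, RAB6B rose and 9 did not pass. RAB18, which acts at the endoplasmic reticulum and on lipid droplets, was at 2395, 2408.5 and 2226 units in control and at 1766, 1859 and 1776 in ING2 siRNA arrays, a log2 difference of -0.38 (SE 0.08, limma adjusted p = 0.0296). The groups did not overlap, and after quantile normalization the difference was -0.25 (limma adjusted p = 0.0717). RAB6B, a paralogue of RAB6A best known from neurons, was at 132, 129.7 and 145 units in control and at 165, 179 and 176 in ING2 siRNA arrays, a log2 difference of 0.36 (SE 0.08, limma adjusted p = 0.0359). The groups were apart here too, but the other 2 RAB6B probe sets were at 0.13 and 0.01 and did not pass.

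The values of RAB2A and RAB1A were lower, without passing. RAB2A, which acts in Golgi traffic and in the fusion of late endosomes with lysosomes, was at 2901, 3395 and 2966 units in control and 2238.5, 2587.5 and 2454 in ING2 siRNA arrays, without overlap, at -0.35 (SE 0.09, limma adjusted p = 0.0504). RAB1A, which starts transport out of the endoplasmic reticulum, was at -0.27 (SE 0.08, limma adjusted p = 0.0649), also without overlap. Their paralogues were at -0.10 for RAB2B and 0.13 for RAB1B, and RAB30, RAB33A, RAB33B and RAB43 lay between -0.30 and 0.11. RAB6A, a RAB of retrograde Golgi traffic, has a single dim probe set of its own, at 0.15. The 4 probe sets that name RAB6A with its retrocopies RAB6C or RAB6D were at 0.09, -0.25, -0.31 and -0.35, and none passed (the smallest limma adjusted p was 0.0575).

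**Figure D3:**
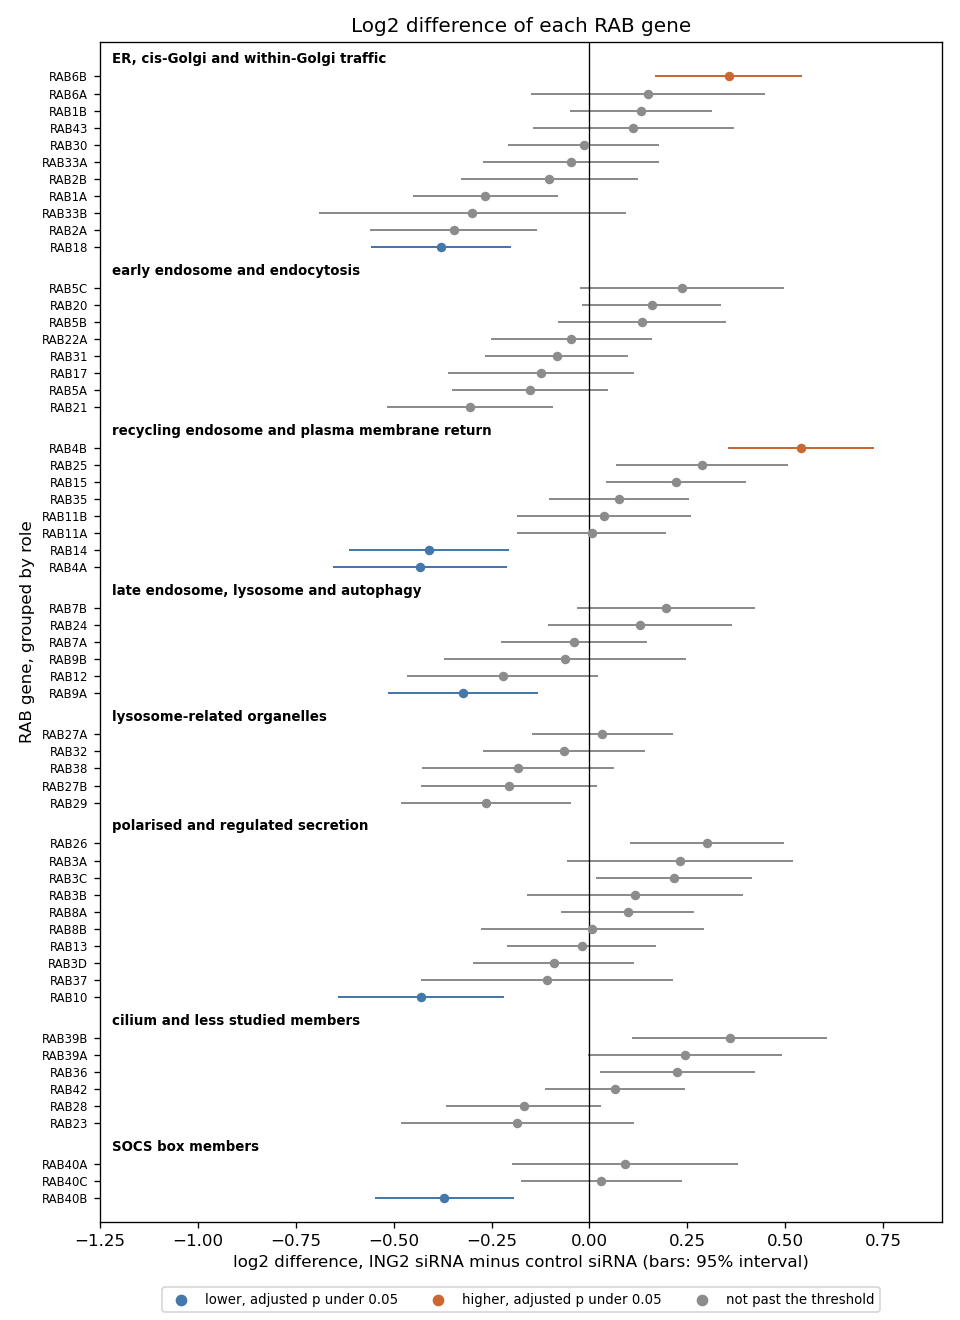
Log2 difference (ING2 siRNA minus control, x axis) of each of the 57 RAB genes, grouped by role, with the 95% interval from limma as bars. Blue and orange points are the 6 lower and 2 higher genes past the threshold, and the largest values on each side are -0.43 for RAB4A and 0.54 for RAB4B.

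None of the 8 RABs of early endosomes and endocytosis passed. RAB21, which moves integrins through early endosomes, was at 745, 827 and 768 units in control and at 634, 694 and 571 in ING2 siRNA arrays, a log2 difference of -0.31 (SE 0.09, limma adjusted p = 0.0653) without overlap. The RAB5 genes, which organise the fusion of early endosomes, were at -0.15 for RAB5A, 0.13 for RAB5B and 0.24 for RAB5C. RAB17, RAB20, RAB22A and RAB31 lay between -0.12 and 0.16.

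Of the 6 RABs of late endosomes, lysosomes and autophagy, RAB9A fell and 5 did not pass. RAB9A, which returns mannose 6-phosphate receptors from late endosomes to the Golgi, was at 2016, 2068 and 2036 units in control and at 1729, 1683 and 1489.5 in ING2 siRNA arrays, a log2 difference of -0.32 (SE 0.09, limma adjusted p = 0.0470). It has 1 probe set, and with adjustment over probe sets its limma adjusted p was 0.0559. After quantile normalization it was at -0.19 (limma adjusted p = 0.148). RAB7A, the main RAB of late endosomes, was at -0.04, and its 7 probe sets ran from -0.35 to 0.10. RAB7A turned to 0.09 after quantile normalization, and RAB7B, RAB9B, RAB12 and RAB24 lay between -0.22 and 0.20.

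No member of the lysosome-related organelle group passed, with RAB29 lowest at -0.26 (SE 0.10, limma adjusted p = 0.0953). RAB29 recruits the kinase LRRK2 to membranes. RAB27A and RAB27B, which dock exosome-bearing endosomes and secretory granules at the cell surface, were at 0.03 and -0.21. RAB32 and RAB38, of pigment and other specialised granules, were at -0.06 and -0.18, and RAB32 turned to 0.06 after quantile normalization.

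Among the 10 RABs of polarised and regulated secretion, RAB10 fell. RAB10, which carries vesicles to the cell surface and shapes tubules of the endoplasmic reticulum, was at 3777, 4455 and 4378 units in control and at 2882.5, 3248 and 3219 in ING2 siRNA arrays. The log2 difference was -0.43 (SE 0.09, limma adjusted p = 0.0320) without overlap, and the second RAB10 probe set was at -0.19. Its close relatives RAB8A, RAB8B and RAB13 were at 0.10, 0.01 and -0.02. RAB26, of secretory granules, was at 0.30 (SE 0.09, limma adjusted p = 0.0570), and RAB3A, RAB3B, RAB3C, RAB3D and RAB37 lay between -0.11 and 0.23.

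RAB40B belongs to a set of RABs with a SOCS box that recruit a ubiquitin ligase, and it has been studied for the secretion of matrix metalloproteinases in MDA-MB-231 cells. It was at 549, 602 and 595 units in control and at 454, 453 and 442 in ING2 siRNA arrays, a log2 difference of -0.37 (SE 0.08, limma adjusted p = 0.0304) without overlap. Its other 2 probe sets, both dimmer, were at 0.13 and 0.22, so that the mean over its probe sets was -0.01. RAB40A and RAB40C were at 0.09 and 0.03. In the last group, RAB23 and RAB28, both linked to cilia, were at -0.18 and -0.17, and RAB36, RAB39A, RAB39B and RAB42 lay between 0.07 and 0.36 without passing. RAB39B was among the dimmest members, at 8.0 to 8.82 units in control.

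The values of this family also depended on which probe set stood for a gene. The 57 genes are covered by 138 probe sets, of which 22 in 15 genes were lower and 3 in 3 genes higher at a limma adjusted p under 0.05 over all 41091 probe sets that name 1 gene. That is 25 of 138, where 7.3% of all probe sets passed, 5.12% lower and 2.18% higher. Among the 81 RAB probe sets that were not the brightest of their gene, 17 were lower and 1 higher, against 6.36% and 1.84% of such probe sets over all genes. Of the 35 members with several probe sets, 20 had them all on the same side of 0 and 15 on both sides. The 25 became 8 without control array 2, 9 without control array 3, 8 without ING2 siRNA array 1 and 5 without ING2 siRNA array 3, fits in which 1.38%, 1.45%, 1.63% and 0.784% of all probe sets passed. They were 29 without control array 1 and 23 without ING2 siRNA array 2, where 10% and 9.22% of all probe sets passed.

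**Figure D4:**
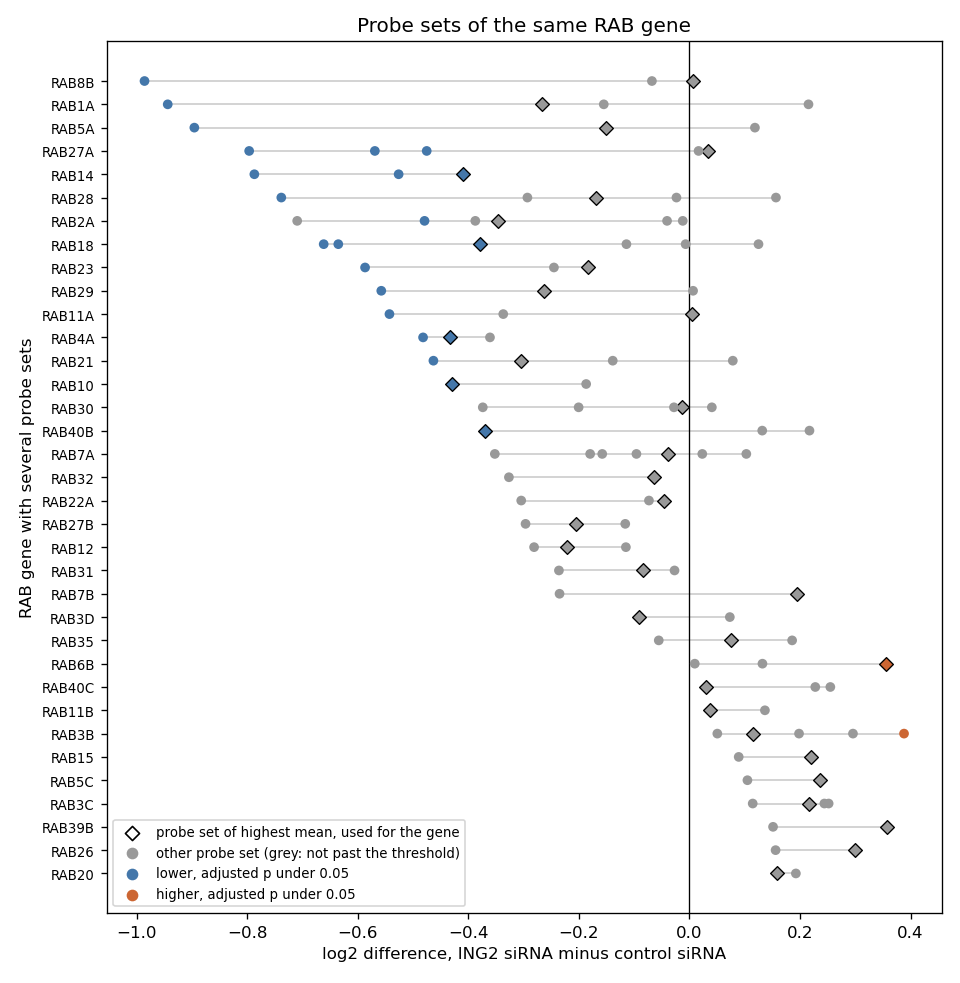
Log2 difference (ING2 siRNA minus control, x axis) of every probe set of the 35 RAB genes with several, 1 row per gene, with the probe set of highest mean as a diamond. Blue points passed as lower and orange as higher; the lowest points, of RAB8B, RAB1A and RAB5A, lie at -0.99, -0.94 and -0.90, far to the left of the diamond of the same gene.

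There were 5 probe sets, of RAB8B, RAB1A, RAB5A, RAB28 and RAB18, that passed as lower without each of the 6 arrays in turn and after quantile and cyclic loess normalization. The share of all probe sets that meet these conditions together was not counted, so the 5 cannot be set against a background. For RAB8B, which takes part in secretion at cell protrusions, probe set 222846_at was at 234, 276 and 253 units in control and at 126, 133 and 125 in ING2 siRNA arrays. The log2 difference was -0.99 (SE 0.09, limma adjusted p = 0.00158), with values from -1.04 to -0.93 when 1 array was left out. The brightest RAB8B probe set was at 905, 1251 and 1097 in control and at 1069.8, 1212 and 972 in ING2 siRNA arrays, and these groups overlapped.

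Probe set 207791_s_at of RAB1A was at 902, 819.8 and 943 units in control and at 433, 514 and 439.97 in ING2 siRNA arrays, a log2 difference of -0.94 (SE 0.10, limma adjusted p = 0.00258). The brightest RAB1A probe set went from 8650.1, 9009 and 9611 units to 7205, 7684 and 7782. Both RAB1A probe sets were lower in each ING2 siRNA array than in each control array, by different amounts. The RAB1A probe sets 213440_at and 239570_at were at -0.16 and 0.22 and did not pass.

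Probe set 206113_s_at of RAB5A was at 516, 464 and 406 units in control and at 272, 230.2 and 241 in ING2 siRNA arrays, a log2 difference of -0.90 (SE 0.11, limma adjusted p = 0.00427) without overlap. The brightest RAB5A probe set was at 3654, 4152 and 3694 in control and at 3456, 3636 and 3252 in ING2 siRNA arrays, where the largest value was below the smallest of control. RAB28 had probe set 207495_at at 192, 204 and 193 in control and at 133, 104 and 118 in ING2 siRNA arrays, a log2 difference of -0.74 (SE 0.10, limma adjusted p = 0.00653). Its other 4 probe sets lay between -0.29 and 0.16.

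RAB18 was lower by 3 probe sets. Probe set 224787_s_at was at 2316, 2652 and 2580.5 units in control and at 1437.5, 1693 and 1645 in ING2 siRNA arrays, a log2 difference of -0.66 (SE 0.10, limma adjusted p = 0.00857). The third, 223336_s_at, was at -0.64 (limma adjusted p = 0.0137), and the 3 dimmer RAB18 probe sets, below 100 units, were between -0.11 and 0.12. The 3 bright RAB18 probe sets thus fell together, and the gene's fall did not rest on 1 probe set.

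RAB27A, which the gene-level value put at 0.03, had 3 lower probe sets. Probe set 222294_s_at was at 1010.3, 1026 and 1375 units in control and at 576, 692 and 683 in ING2 siRNA arrays, a log2 difference of -0.80 (SE 0.13, limma adjusted p = 0.0127), and it passed in 4 of the 6 fits that left out 1 array. The other lower ones were 235766_x_at at -0.57 and 209515_s_at at -0.48, whereas 210951_x_at and 209514_s_at were at 0.03 and 0.02. The 5 RAB27A probe sets fell into 3 with no overlap between the groups and 2 with overlap. An x in a probe set name marks probes that can match other genes.

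Single lower probe sets were also found for RAB23 at -0.59, RAB29 at -0.56, RAB11A at -0.54, RAB2A at -0.48 and RAB21 at -0.46, in genes whose brightest probe set did not pass. RAB14 had all 3 of its probe sets lower, at -0.41, -0.53 and -0.79, the middle one at 8.63 to 15.8 units and so dim. Beside RAB4B and RAB6B, the third rise was RAB3B at 0.39, in a probe set of 34 to 50.4 units. In all, 13 probe sets of 11 RAB genes passed although the gene did not pass by its brightest probe set. The share of such probe sets over all genes was not counted.

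Probe sets of 1 gene were also compared with each other within each array, a test chosen after the data were seen. The difference between another probe set and the brightest one was tested for 21314 pairs over all genes, of which 43 (0.202%) passed and 0.0938% passed as lower. Of the 81 RAB pairs in 35 genes, 1 passed: 222846_at of RAB8B fell relative to the brightest RAB8B probe set, with a log2 difference of -0.99 (SE 0.11, limma adjusted p = 0.0406). The RAB8B within-gene probe set difference no longer passed without control array 2, control array 3 or any 1 ING2 siRNA array (limma adjusted p = 0.0823 to 0.21). The same difference was -0.68 for RAB1A, -0.74 for RAB5A and -0.83 for RAB27A (limma adjusted p = 0.0595, 0.0631 and 0.0665). Other pairs ran the other way without passing, among them RAB40B at 0.59 and 0.50 (limma adjusted p = 0.0650 and 0.0846). Probe set 239570_at of RAB1A was at 0.48 relative to the brightest one (limma adjusted p = 0.0863).

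**Figure D5:**
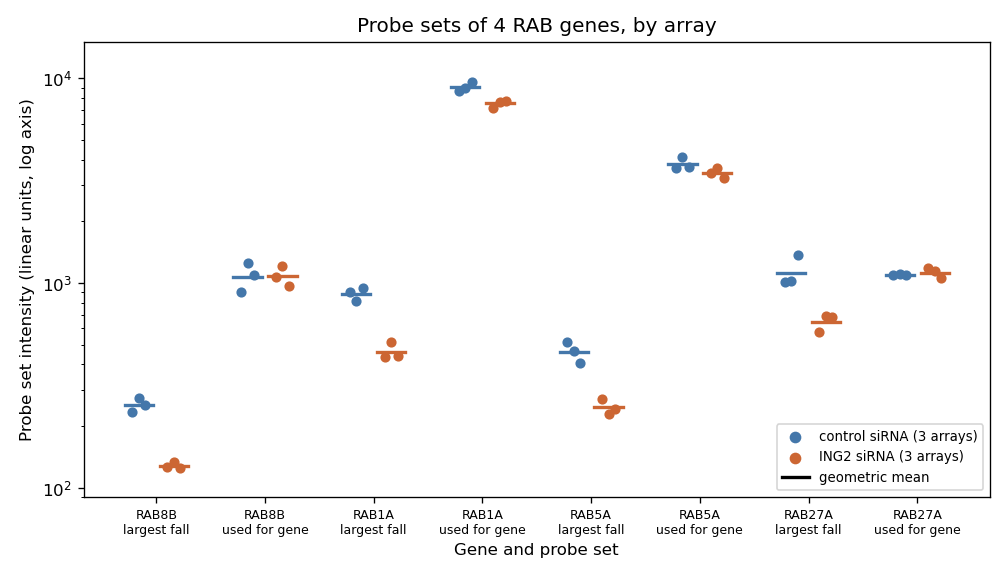
Probe set intensity (linear units on a log axis) of RAB8B, RAB1A, RAB5A and RAB27A in 3 control siRNA (blue) and 3 ING2 siRNA (orange) arrays, for the probe set of each gene with the largest fall and for the brightest one, used for the gene, with bars at the geometric means. The probe set with the largest fall was picked for that fall. Its ING2 siRNA points lie below its control points in each of the 4 genes. For the brightest probe set the groups are apart for RAB1A and RAB5A and overlap for RAB8B and RAB27A.

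Where the probes lie along these transcripts was not analysed here, so transcript forms with different ends were not told apart. The value of RNA integrity from GAPDH differed between the groups with no overlap. The log2 difference between the 3′ and 5′ control probe sets of GAPDH was 0.205 ± 0.015 (SD, n = 3) in control and 0.316 ± 0.042 (SD, n = 3) in ING2 siRNA arrays (exact two-sided permutation p = 0.1). For ACTB it was 0.490 ± 0.110 (SD, n = 3) and 0.541 ± 0.096 (SD, n = 3), with overlap (p = 0.6 by the same exact test). Their part in the differences between RAB probe sets was not tested.

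The proteins that act on RABs were described from 5 lists with 147 measured genes, of which 10 fell and 5 rose (10.2%, against 8.29% of all genes). None passed without control array 2, control array 3, ING2 siRNA array 1 or ING2 siRNA array 3, where 0.0101% to 0.0152% of all genes passed. The count was 26 without control array 1 and 18 without ING2 siRNA array 2, where 13.2% and 13% of all genes passed. Of 8 genes for delivery and prenylation, which add the lipid anchor and carry RABs in the cytosol, none passed, and the list's median log2 difference was -0.05. The smallest p belonged to RABGGTB, the catalytic subunit of RAB geranylgeranyl transferase, at -0.29 (limma adjusted p = 0.0638) and ARL6IP5, a PRA1 family membrane protein, at -0.24 (limma adjusted p = 0.0859).

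Of 44 exchange factors 4 fell and none rose (9.09%, where 4.67% of all genes fell and 3.62% rose), with a median of 0.03. DENND6A, an exchange factor for RAB14, was at 1388, 1911 and 1994 units in control and at 901, 1196 and 1029 in ING2 siRNA arrays, a log2 difference of -0.75 (SE 0.15, limma adjusted p = 0.0265) with no overlap. RAB14 and DENND6A were thus both lower. DENND1B, an exchange factor for RAB35, was at -0.62 with overlapping groups (limma adjusted p = 0.0473), C9orf72, which works in a complex with SMCR8, at -0.46, and SBF2, a myotubularin-related DENN protein, at -0.38. The other 2 C9orf72 probe sets were at -0.04 and 0.07. SBF2 did not pass after quantile normalization or cyclic loess (limma adjusted p = 0.0893 and 0.0768). Nor did DENND1B (limma adjusted p = 0.0516 and 0.0501), whereas DENND6A and C9orf72 passed after both. The DENND1B probe set used had a limma adjusted p of 0.0551 with adjustment over probe sets, and its others ran from -0.61 to 0.20.

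Of 38 GTPase-activating proteins 5 rose and 2 fell (18.4%, against 8.29% of all genes, 3.62% higher and 4.67% lower), with a median of 0.03. TBC1D8B fell by 0.54 on the log2 scale (limma adjusted p = 0.0246) and TBC1D15, which acts on RAB7, by 0.45 (limma adjusted p = 0.0346). TBC1D16, which acts on RAB4A, was at 667, 631 and 681 units in control and at 881, 823 and 867 in ING2 siRNA arrays, a log2 difference of 0.38 (SE 0.08, limma adjusted p = 0.0298) without overlap. All 5 TBC1D16 probe sets were above 0, between 0.21 and 0.38. The other rises included TBC1D25, which acts on RAB33B, and EVI5L, both at 0.38, and RAB3GAP2, at 0.40 in a probe set of 13.0 to 19.8 units. The second TBC1D25 probe set was at -0.01. The other EVI5L probe sets were at 0.03 to 0.16, and the one used had a limma adjusted p of 0.0557 with adjustment over probe sets. RAB3GAP2 did not pass after quantile normalization or cyclic loess (limma adjusted p = 0.0648 and 0.0745).

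Of 52 effectors 4 fell and none rose (7.69%, where 4.67% of all genes fell and 3.62% rose), with a median of 0.00. GCC2, a golgin that captures carriers from late endosomes at the Golgi and binds RAB9A, was at 747, 815 and 839 units in control and at 551, 596 and 487 in ING2 siRNA arrays, a log2 difference of -0.56 (SE 0.10, limma adjusted p = 0.0214) without overlap. The second GCC2 probe set was at 0.04. APPL1, an effector of RAB5, was at -0.55 by the probe set used and at -0.70 by its other one, and both passed. SYTL2, an effector of RAB27, was at -0.41 and KIF20A, a kinesin that binds RAB6 and works in cytokinesis, at -0.32. KIF20A did not pass after quantile normalization (-0.20, limma adjusted p = 0.146) or cyclic loess (-0.22, limma adjusted p = 0.123).

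None of the 5 genes around LRRK kinases, which phosphorylate several RABs, passed, and their median was 0.08. PPM1H, the phosphatase that removes that phosphate, was at 0.28 (limma adjusted p = 0.0723) and LRRK2 was at -0.15 in a dim probe set (limma adjusted p = 0.226).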

How the data were processed

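For 6 arrays the authors deposited an intensity per probe set, on a linear scale, with RMA and R 2.12 named in the submitters' processing notes. How the linear values, background correction and filters came about is not stated there. The log2 of each value was taken with no pseudocount. Probe sets were named through a 2016 platform annotation, with symbols updated by gene identifier to RefSeq (GRCh38.p14). Of 54675 probe sets, 62 controls were left out, 41091 named 1 gene, 1801 named more than 1 and 11721 had no gene listed. Per gene the probe set of highest mean log2 intensity was used.

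Groups were compared with limma 3.58.1 (lmFit, eBayes) in R 4.3.3 over 19777 genes with no covariate, or over probe sets, with Benjamini-Hochberg adjustment and a threshold of 0.05. The test was checked on simulated data. Single values per array had an exact two-sided permutation test. Alternatives were median centring, quantile and cyclic loess normalization (3 iterations), leaving out genes in the lowest 25% by intensity, other probe set choices, robust eBayes with an intensity trend, weights per array, a replicate block, leaving out each array, and thresholds of 0.01 and 0.1. The RAB members, gene lists and role groups were chosen with earlier results of these data known. Any RAB gene could be named, with array values where it passed, where its probe sets differed, or where it came close to passing; the last were chosen after their values were seen. In the other lists the members past the threshold were named, up to 4 rises and 4 falls by size, and in a list with none the 2 of smallest p.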

Additional observations from a re-analysis of the deposited data

How the results depend on the processing

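The number of RAB members past the threshold was 8, and it became 10 with median centring, 4 with quantile normalization, 3 with cyclic loess, 11 without dim genes, 13 with the mean of all probe sets, 18 when the probe set had the largest interquartile range, 11 with an intensity trend and robust eBayes, 15 with array weights and 14 with the replicate block. Falls and rises over all genes went from 4.67% and 3.62% to 7.31% and 1.33% with median centring. They were 3.16% and 4.81% with quantile normalization and 3.45% and 2.26% with cyclic loess. Without dim genes they were 8.44% and 5.87%. With the mean of all probe sets they were 7.03% and 6.21%, and with the largest interquartile range 9.88% and 6.61%. Trend and robust eBayes gave 7.26% and 4.91%, array weights 9.76% and 9.74%, and the replicate block 9.5% and 8.24%. At an adjusted p under 0.01 the number of RAB members was 0, where 0.0101% of all genes fell and 0 rose. At 0.1 it was 16, where 10.2% fell and 12.6% rose, and leaving out 1 array gave 0 to 10. The 15 RAB regulator and effector genes past the threshold became 20 with quantile normalization, 16 with cyclic loess, 23 without dim genes, 32 when the probe set had the largest interquartile range, 24 with trend and robust eBayes, 40 with array weights, 30 with the replicate block, 0 at 0.01, 39 at 0.1, and 0 to 26 with 1 array left out. The shares of all genes above are the background of these counts too. The 25 RAB probe sets past the threshold ranged from 5 to 29 with 1 array left out and from 18 to 34 under the other settings run. Of all probe sets, 0.784% to 10% passed with 1 array left out and 5.74% to 14.7% under the other settings. ING2 passed under every setting run. Same-numbered arrays had deviation correlations of 0.263, 0.291 and -0.019, where those of other pairs ran from -0.311 to 0.0996. Not every array was closest to its own number, and these values do not settle whether the numbers pair the samples. With the replicate block the RAB8B probe set difference had a limma adjusted p of 0.0501. The causes of these changes were not tested.

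None of the members that changed sign passed the threshold as deposited. With quantile normalization the log2 difference put RAB11B at -0.0027, RAB13 at 0.075, RAB22A at 0.084, RAB2B at 0.0054, RAB30 at 0.010, RAB31 at 0.049, RAB32 at 0.064, RAB3D at 0.0039, RAB40A at -0.010 and RAB7A at 0.087. Cyclic loess put RAB11B at -0.034, RAB13 at 0.094, RAB22A at 0.054, RAB31 at 0.017, RAB32 at 0.041, RAB40A at -0.021, RAB42 at -0.023 and RAB7A at 0.062. Median centring put RAB11A at -0.066, RAB11B at -0.033, RAB27A at -0.038, RAB40C at -0.040, RAB42 at -0.0056 and RAB8B at -0.064, and array weights put RAB11A at -0.016 and RAB8B at -0.041. The mean of all probe sets put RAB11A at -0.29, RAB27A at -0.36, RAB7B at -0.020 and RAB8B at -0.35, and the probe set of largest interquartile range put RAB11A at -0.54, RAB27A at -0.80, RAB7B at -0.24 and RAB8B at -0.99. With 1 array left out, log2 differences ran for RAB11A from -0.052 to 0.044, RAB11B from -0.062 to 0.10, RAB13 from -0.064 to 0.041, RAB22A from -0.10 to 0.031, RAB27A from -0.0018 to 0.078, RAB30 from -0.048 to 0.035, RAB32 from -0.12 to 0.018 and RAB33A from -0.12 to 0.033. They ran for RAB37 from -0.24 to 0.025, RAB3B from -0.010 to 0.18, RAB40A from -0.047 to 0.18, RAB40C from -0.029 to 0.10, RAB6A from -0.012 to 0.25, RAB7A from -0.081 to 0.0094, RAB8B from -0.12 to 0.12 and RAB9B from -0.24 to 0.047. The group difference in ACTB 3′ minus 5′ ran from -0.011 to 0.10, with a change of sign without control array 1 or ING2 siRNA array 2.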
